A study of Mus musculus with 40 samples.

Results

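The acyl-CoA thioesterases of the mouse liver were followed across doses of GenX in the 10 genes Acot1, Acot2, Acot3, Acot4, Acot5, Acot6, Acot8, Acot9, Acot12 and Acot13, out of 21448 gene symbols in the deposited probe counts. The members were taken by gene symbol alone, and each gene was read from its most counted probe. Acot1, Acot3, Acot6 and Acot9 had 2 probes each and the other members 1, so that 14 of 30146 probes belonged to the family. Livers came from wildtype male and female Crl:CD1(ICR) mice that were given GenX, a short-chain perfluoroalkyl ether acid that replaced perfluorooctanoic acid in fluoropolymer manufacture, by oral gavage for 90 days. Doses were 0, 0.1, 0.5 and 5 mg/kg body weight per day, the controls received deionized water, and each sex and dose had 5 mice. RNA was measured by TempO-Seq, a targeted assay in which pairs of detector probes are ligated on the RNA of fixed, paraffin-embedded sections and then counted by sequencing. The shallow library of female mouse 355 (0.5 mg/kg) was left out of the fits reported here except where stated, which left 39 libraries of 10341341 to 15562253 reads.

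Acyl-CoA thioesterases hydrolyze the thioester bond of acyl-CoA and so release a free fatty acid and coenzyme A. They are spread over the cytosol, the mitochondria and the peroxisomes, where they set the balance between activated and free acids and keep coenzyme A available for oxidation. In rodent liver, Acot1 and several relatives are known as targets of the nuclear receptor PPARα, which binds fatty acids, fibrates and many perfluorinated acids.

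Of the cytosolic enzymes, Acot1 prefers long-chain acyl-CoA and Acot12 cleaves acetyl-CoA. Of the mitochondrial enzymes, Acot2 acts on long-chain acyl-CoA in the matrix, Acot13 is a small protein that associates with mitochondria, and Acot9 accepts short and long chains. The peroxisomal enzymes are Acot3 (long chains), Acot4 (dicarboxylic and succinyl-CoA), Acot5 (medium chains), Acot6 (branched chains) and Acot8 (a broad range that includes bile acid CoA esters).

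A group of 6 of these genes lie in a cluster, and the span they cover held 7 annotated protein-coding genes in all. On GRCm38, with the GENCODE vM21 annotation, Acot2 (chr12:83987861-83993873), Acot1 (chr12:84009490-84018371), Acot4 (chr12:84038379-84048601), Acot3 (chr12:84052144-84060402), Acot5 (chr12:84069325-84076020) and Acot6 (chr12:84100654-84111349) followed each other on the plus strand within 123 kb. The remaining members were elsewhere: Acot8 at chr2:164792765-164804882 (minus strand), Acot13 at chr13:24817948-24831540 (minus), Acot12 at chr13:91741512-91786148 (plus) and Acot9 at chrX:155262443-155297654 (plus). Over their longest annotated coding sequences, the 6 clustered genes were 73.3% to 95.3% identical to each other, the closest pair being Acot1 and Acot2, which shared an unbroken run of 273 coding bases. The sequences of the detector probes were not used here, so it was not tested how far a probe named for a clustered gene also reads a neighbor.

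The 250 bases upstream of the annotated RefSeq start (GRCm38.p6, plus strand) are shown for the 3 clustered genes whose counts changed, Acot1 (chr12:84009252-84009501), Acot2 (chr12:83987611-83987860) and Acot3 (chr12:84051894-84052143), and for Acot4 (chr12:84038129-84038378), which lies between Acot1 and Acot3. Capitals mark CCAAT and AGGTCA, or their reverse complements.
Acot1: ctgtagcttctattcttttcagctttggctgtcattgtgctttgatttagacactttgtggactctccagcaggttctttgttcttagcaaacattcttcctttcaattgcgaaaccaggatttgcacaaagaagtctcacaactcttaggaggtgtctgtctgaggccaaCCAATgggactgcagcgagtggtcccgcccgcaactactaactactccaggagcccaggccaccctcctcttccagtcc
Acot2: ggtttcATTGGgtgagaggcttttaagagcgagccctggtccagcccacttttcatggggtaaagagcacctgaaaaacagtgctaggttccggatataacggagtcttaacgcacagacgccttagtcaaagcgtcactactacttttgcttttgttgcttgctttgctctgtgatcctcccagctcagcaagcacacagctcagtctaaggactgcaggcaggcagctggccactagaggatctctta
Acot3: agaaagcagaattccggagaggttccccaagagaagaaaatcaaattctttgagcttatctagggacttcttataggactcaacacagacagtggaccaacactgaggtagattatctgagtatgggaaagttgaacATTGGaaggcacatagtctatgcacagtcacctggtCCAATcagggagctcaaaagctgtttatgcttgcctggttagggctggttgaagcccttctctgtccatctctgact
Acot4: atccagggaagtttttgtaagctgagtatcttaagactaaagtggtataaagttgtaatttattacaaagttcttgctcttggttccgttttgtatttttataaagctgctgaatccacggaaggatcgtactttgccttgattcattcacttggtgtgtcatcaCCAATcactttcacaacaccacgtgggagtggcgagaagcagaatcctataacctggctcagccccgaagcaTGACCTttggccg

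These 4 upstream stretches were only 44.0% to 49.1% identical to each other in pairwise alignment, far below the coding sequences of the same genes. Of the 8 members with a RefSeq window of 300 bases (all but Acot6 and Acot13), 7 held CCAAT on either strand, beside 37.4% of all 32851 windows, and, counted from the annotated start, matches lay at -79 in Acot1, -85 in Acot4, -113 and -77 in Acot3, -244 in Acot2, -103 in Acot5, -63 in Acot9 and -155, -115 and -61 in Acot8. AGGTCA, the hexamer read by many nuclear receptors, was present in 4 windows (Acot3, Acot4, Acot5 and Acot12), beside 16.3% of all windows. The hexamer repeated in the same direction with 1 base between the copies was in none of the 8 windows, beside 0.0396% of all windows, and the looser AGGNCA repeated in the same way was also in none, beside 0.381%. Both strands were searched, a repeat of AGGTCA also counts as a hit of the single hexamer, and a match of letters is a description only.

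Counts separated the family into 5 well counted members and 5 sparse ones. Acot1, Acot12 and Acot13 had reads in 39 of 39 libraries, Acot3 in 34 and Acot2 in 31. Acot9 had reads in 26 libraries, Acot4 and Acot6 in 14 each, Acot5 in 5 and Acot8 in 4. All 10 members passed the filter on low counts. Acot5 did so only through libraries of the 5 mg/kg groups, and Acot4 only through dosed libraries, as all its controls had 0 reads. Their reads in dosed mice are thus not independent of the filter. Values are given in CPM (counts scaled to a common library size, with TMM factors), and since each probe captures with its own efficiency, levels were compared between mice and not between genes.

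The labeled tissue and sex were checked first. The 5 hepatocyte markers measured (Alb, Ttr, Apoa2, Cps1, Tat) together held 7671 to 12996 CPM in every library. Of the markers of adipocytes (Adipoq, Plin1, Lep), brown adipocytes and muscle (Ucp1, Ckm, Myh6), none passed 2.92 CPM in summed level. The 4 Y-linked genes measured summed to 31.6 to 84.2 CPM in 20 male libraries and 0 in 19 female libraries. The summed markers of Kupffer cells, endothelium and stellate cells overlapped between controls and 5 mg/kg in both sexes. In males the endothelial sum ran from 134 to 164 CPM in controls and from 74.1 to 149 CPM at 5 mg/kg, and the stellate sum from 57.3 to 124 CPM and from 121 to 143 CPM, and their part in the results was not tested. Cholangiocyte and lymphocyte sums reached at most 11.2 and 23 CPM. In whole-liver RNA, a change in the number of cells of a type and a change in RNA per cell cannot be told apart.

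**Figure D1:**
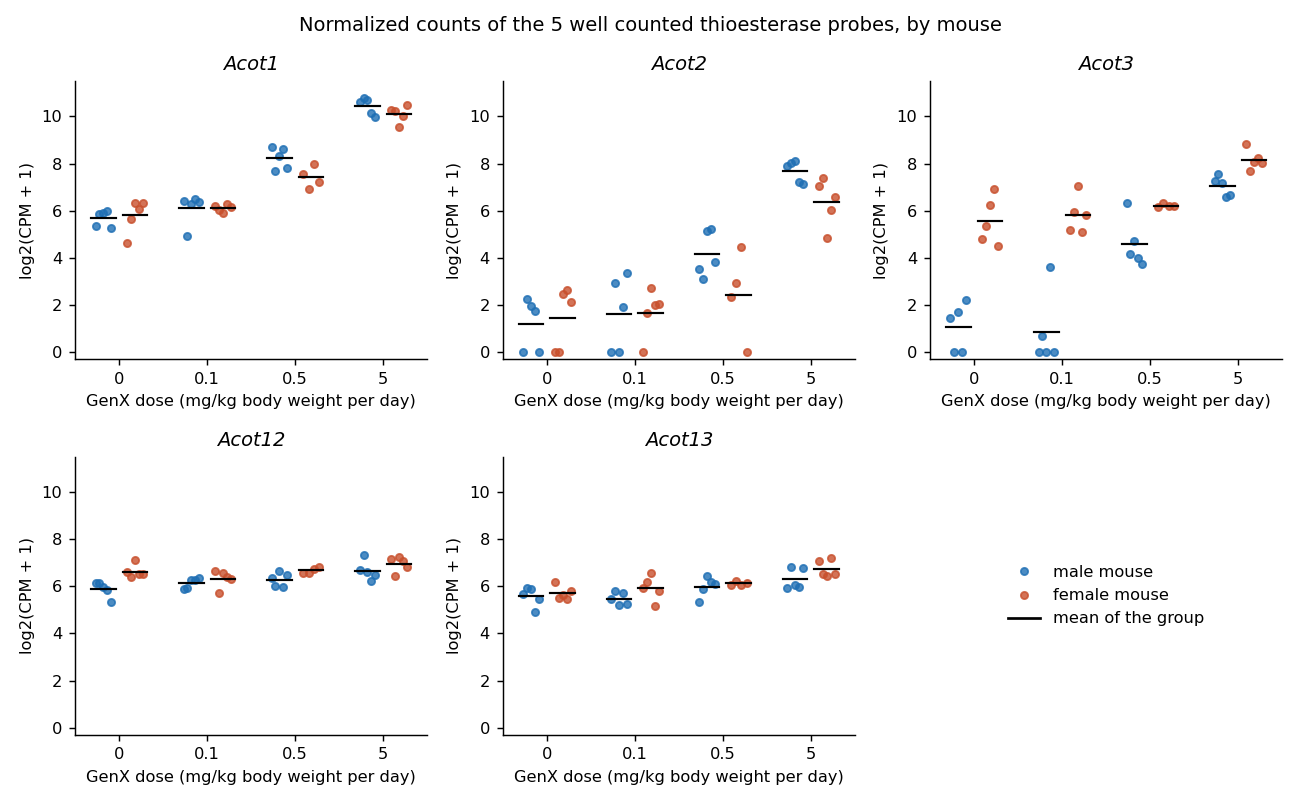
Normalized counts of the 5 well counted members in each mouse, as log2(CPM + 1), against dose. Points are single mice, blue for males and red for females, and the black line is the mean of the transformed values. Acot1, Acot2 and Acot3 are higher at 5 mg/kg than in controls in both sexes and, in males, already at 0.5 mg/kg. In females at 0.5 mg/kg Acot1 is above the controls but Acot2 and Acot3 overlap them. Acot12 and Acot13 shift less, with called rises at 5 mg/kg for Acot13 in both sexes and for Acot12 in males. Female controls lie above male controls for Acot3.

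Acot1 had the smallest adjusted p of the family at 5 mg/kg in both sexes and was the member that changed at the lower dose in both sexes. In males its mean rose from 51.0 ± 11.3 CPM (SD, n = 5) in controls to 311 ± 96.1 CPM at 0.5 mg/kg and 1416 ± 338 CPM at 5 mg/kg. In females it rose from 59.4 ± 23.6 CPM (n = 5) to 176 ± 55.1 CPM at 0.5 mg/kg (n = 4) and 1129 ± 262 CPM at 5 mg/kg (n = 5). At 5 mg/kg the probe took 27.7-fold more counts than in controls in males (log2 fold change 4.79, SE 0.287, adjusted p = 3.37e-18) and 19-fold more in females (4.25, SE 0.280, adjusted p = 1.07e-16).

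Single mice were ordered by dose with no overlap from 0.5 mg/kg upward. Male controls had 40.2, 57.8, 58.0, 61.6 and 37.4 CPM of Acot1, males at 0.5 mg/kg had 415, 207, 319, 394 and 221 CPM, and males at 5 mg/kg had 1541, 1751, 1670, 1121 and 994 CPM. Female controls had 24, 48.5, 79.2, 65.7 and 79.8 CPM, females at 0.5 mg/kg had 186, 121, 248 and 148 CPM, and females at 5 mg/kg had 1225, 1191, 741, 1038 and 1448 CPM. Every mouse at 0.5 mg/kg was above every control of its sex, and every mouse at 5 mg/kg was above every mouse at 0.5 mg/kg. At 0.5 mg/kg the rise was 6.10-fold in males (log2 2.61, SE 0.261, adjusted p = 4.17e-10) and 2.95-fold in females (1.56, SE 0.262, adjusted p = 0.000452). The step from 0.5 to 5 mg/kg added a further 4.55-fold in males (2.19, SE 0.256, adjusted p = 3.28e-08) and 6.43-fold in females (2.68, SE 0.284, adjusted p = 4.52e-09).

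At 0.1 mg/kg Acot1 did not pass the test. Males had 83.3, 29.1, 76.5, 90.4 and 81.1 CPM, so that 4 of 5 lay above every control and mouse 202 below every control, with a log2 difference of 0.50 (SE 0.247, unadjusted p = 0.0495, adjusted p = 0.364). Females had 58.7 to 76.2 CPM, within the range of their controls, with a log2 difference of 0.20 (SE 0.247, adjusted p = 1).

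The second Acot1 probe was counted less, at 7.70 ± 4.40 CPM in male controls and 123 ± 40.3 CPM at 5 mg/kg. Its log2 fold changes at 5 mg/kg were 4.00 (SE 0.604, adjusted p = 2.58e-06) in males and 3.89 (SE 0.601, adjusted p = 9.29e-06) in females. At 0.5 mg/kg it did not pass in either sex, with 1.67 (SE 0.555, adjusted p = 0.142) in males and 1.32 (SE 0.576, adjusted p = 0.485) in females.

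Acot12, the other cytosolic enzyme, moved by less than 2-fold. Male controls had 68.8, 70.0, 61.8, 56.4 and 39.7 CPM and males at 5 mg/kg had 102, 158, 96.9, 74.2 and 88.2 CPM. The 5 treated males were all above the 5 controls, a rise of 1.75-fold (log2 0.81, SE 0.201, adjusted p = 0.00569). In females the difference at 5 mg/kg was 1.25-fold (0.33, SE 0.200, adjusted p = 0.494), from 99.6 ± 21.5 to 125 ± 26 CPM, with 2 of 5 treated mice above every control. The difference between these effects was itself not past the threshold (female minus male, log2 -0.48, SE 0.283, adjusted p = 0.498).

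Acot2, the mitochondrial matrix enzyme, was barely counted in control livers and had the largest fitted rise of the well counted members in both sexes at 5 mg/kg. Male controls had 0, 3.75, 2.89, 2.38 and 0 CPM, males at 0.5 mg/kg had 10.4, 7.48, 34.4, 35.9 and 13 CPM, and males at 5 mg/kg had 238, 258, 273, 147 and 141 CPM. The 3 sets did not overlap. The log2 fold change was 3.48 (SE 0.942, adjusted p = 0.0398) at 0.5 mg/kg and 6.87 (SE 1.07, adjusted p = 5.39e-06) at 5 mg/kg, and the step between these doses was 3.39 (SE 0.896, adjusted p = 0.0274). The call at 0.5 mg/kg was lost without control mouse 101 (3.15, adjusted p = 0.104), without control mouse 105 (3.17, adjusted p = 0.112), without treated mouse 303 (3.20, adjusted p = 0.1) and in DESeq2 (3.43, adjusted p = 0.148), while the direction was the same in each.

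Female controls had 0, 0, 4.53, 5.17 and 3.32 CPM of Acot2, females at 0.5 mg/kg had 4.10, 6.59, 20.7 and 0 CPM, and females at 5 mg/kg had 133, 164, 28, 63.6 and 94.6 CPM. The 0.5 mg/kg set overlapped the controls (log2 1.58, SE 0.921, adjusted p = 0.581), and the 5 mg/kg set was above every lower dose (5.20 against controls, SE 0.993, adjusted p = 0.000392). Mouse 453 was the lowest of the 5 mg/kg females for Acot2 and also, at 741 CPM, for Acot1. The step from 0.5 to 5 mg/kg was 3.62 (SE 1.0, adjusted p = 0.0674), and it no longer passed without mouse 351 (3.41, adjusted p = 0.223), 352 (3.55, 0.198), 354 (3.21, 0.210), 451 (3.48, 0.113) or 452 (3.34, 0.146), or in DESeq2 (3.65, adjusted p = 0.192).

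The size of the Acot2 rise is imprecise because so little was counted in controls. A captured molecule was worth 20.8 to 49.8 reads, depending on the library, and on that scale the male controls held 3 molecules of 1646340 and the 5 mg/kg males 627 of 2829036, a ratio of 122 between these shares with an exact 95% interval of 41.4 to 591. In females 6 molecules of 2056354 stood against 165 of 1612168, a ratio of shares of 35.1 with an interval of 15.8 to 97.0. Both intervals cover counting error only and not the spread between mice.

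Acot13 rose by about the same amount as Acot12, but in both sexes. Male controls had 50.5, 59.8, 58.1, 29.4 and 43.4 CPM and males at 5 mg/kg had 59.1, 112, 65.1, 61.6 and 110 CPM, so that 4 of 5 treated males were above every control. Female controls had 71.3, 44.3, 49.1, 42.7 and 55.6 CPM and females at 5 mg/kg had 133, 90.9, 85.6, 148 and 91.8 CPM, with no overlap. The rise was 1.69-fold in males (log2 0.76, SE 0.239, adjusted p = 0.0431) and 2.09-fold in females (1.06, SE 0.240, adjusted p = 0.00377). The male call was lost without control mouse 104 (0.62, adjusted p = 0.162) and without treated mouse 402 (0.60, adjusted p = 0.190) or 405 (0.63, adjusted p = 0.163). With the library of mouse 355 included, the calls of both sexes were lost (adjusted p = 0.497 in males and 0.322 in females).

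Acot9, also mitochondrial, was sparse and passed no comparison. Its reads in males at 5 mg/kg were 64, 241, 5, 115 and 113, against 0, 0, 0, 0 and 75 in male controls, and 3 of 5 treated males were above every control (log2 2.37, SE 1.97, adjusted p = 0.669). Females at 5 mg/kg had 0 to 41 reads and their controls 0 to 86 (log2 -0.36, SE 1.87, adjusted p = 1).

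**Figure D2:**
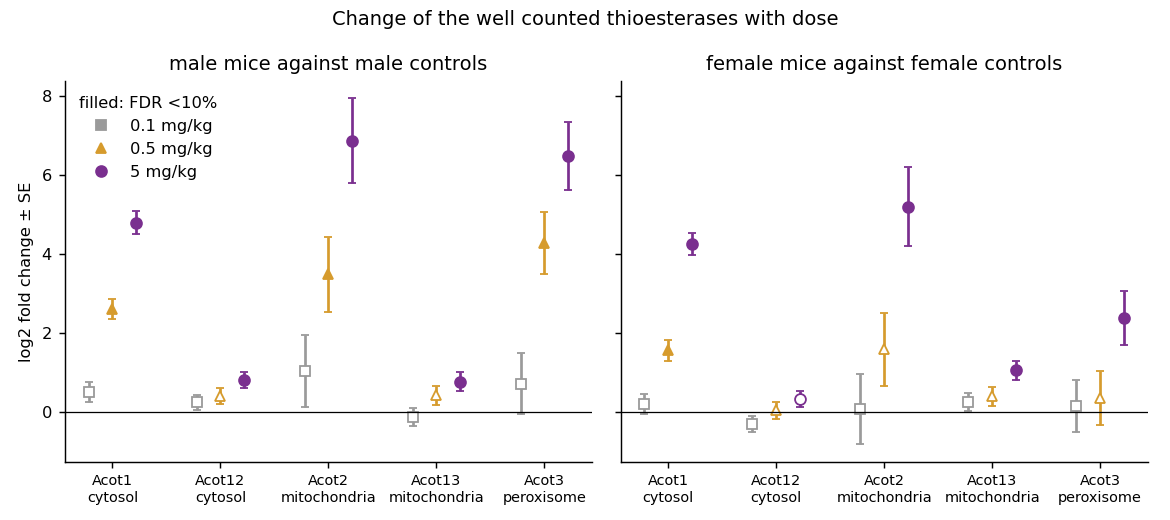
Log2 fold change with its SE for the 5 well counted members at each dose against controls of the same sex, arranged by compartment. Filled symbols passed FDR <10%. At 5 mg/kg the fits run from 0.76 to 6.87 in males, all filled, and from 0.33 to 5.20 in females, where Acot12 is open.

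Acot3, the long-chain enzyme of peroxisomes, differed in level between control males and control females. Male controls had 1.71, 0, 2.26, 0 and 3.61 CPM, whereas female controls had 27.1, 40.3, 75.5, 121 and 21.6 CPM. Every female control was above every male control, with a log2 difference of 5.24 (SE 0.817, adjusted p = 1.69e-05). The second Acot3 probe had 1 read in 5 male control libraries together and 69, 95, 151, 143 and 205 reads in female controls (adjusted p = 1.63e-05). Acot12 was the other member that differed between control sexes, at 99.6 ± 21.5 CPM in females and 59.3 ± 12.3 CPM in males (log2 0.75, SE 0.201, adjusted p = 0.0279), a call that was lost without male control 105 (0.63, adjusted p = 0.117) or female control 153 (0.60, adjusted p = 0.146). Of the 10 members 2 were thus called between control sexes, against a background of 3.49% of all 17877 probes tested.

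With GenX the sexes drew closer together in Acot3. Males at 0.5 mg/kg had 78.0, 16.8, 25.3, 14.9 and 12.4 CPM and males at 5 mg/kg had 150, 187, 144, 94.6 and 99.1 CPM, all above every male control. The log2 fold change in males was 4.28 (SE 0.791, adjusted p = 0.000609) at 0.5 mg/kg and 6.48 (SE 0.857, adjusted p = 1.5e-07) at 5 mg/kg. In captured molecules, 2 in male controls stood against 405 at 5 mg/kg, a ratio of 118 once each is divided by the group's total molecules, with an exact 95% interval of 32.4 to 976, so the size of this rise is loosely bounded from above. The second probe had reads in 2 of 5 males at 0.5 mg/kg and 5 of 5 at 5 mg/kg, and was called at both (adjusted p = 0.000115 and 4.52e-07). Both fits rest on a single read in the male controls, and at 0.5 mg/kg the treated males overlapped those controls. Its step between these doses was not called (1.88, SE 0.818, adjusted p = 0.298).

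Females had 69.2, 78.6, 71.5 and 71.5 CPM of Acot3 at 0.5 mg/kg, within the range of their controls (log2 0.35, SE 0.691, adjusted p = 1), and 452, 202, 267, 304 and 256 CPM at 5 mg/kg, above every control. The rise at 5 mg/kg was 5.18-fold (2.37, SE 0.686, adjusted p = 0.0427). It lost its call without control 151 (2.20, adjusted p = 0.124), 152 (2.27, 0.119) or 155 (2.17, 0.139), without treated mouse 451 (2.17, 0.113) and in DESeq2 (2.40, 0.205). At the second probe the female rise at 5 mg/kg did not pass (2.27, SE 0.827, adjusted p = 0.181). At the most counted probe the 5 mg/kg females, from 202 CPM upward, all remained above the 5 mg/kg males, which reached 187 CPM. This gap was not tested.

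The effect of 5 mg/kg on Acot3 differed between the sexes by a log2 value of -4.10 (female minus male, SE 1.0, adjusted p = 0.0345), and Acot3 was the only one of the 10 members called in that interaction, in which 1.04% of all probes tested were called. This call was lost in DESeq2 (-4.01, adjusted p = 0.117). The second probe gave an adjusted p of 0.00647 in the same comparison, but its fitted value rests on the single read of the male controls. At 0.5 mg/kg the interaction for the most counted probe was -3.93 (SE 1.04, adjusted p = 0.124). There edgeR called 0 of 10 members, beside 0.274% of all probes. An unadjusted edgeR p below 0.05 was met by 2 members, beside 1951 of all 17877 probes. DESeq2 called 0 members, beside 389 of the 20188 probes it tested. At 0.1 mg/kg edgeR called 0 of 10 members, beside 0% of all probes. An unadjusted edgeR p below 0.05 was met by 0 members, beside 1504 of all 17877 probes. DESeq2, which gave no value for Acot8, also called 0, beside 216 of 20188 probes.

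**Figure D3:**
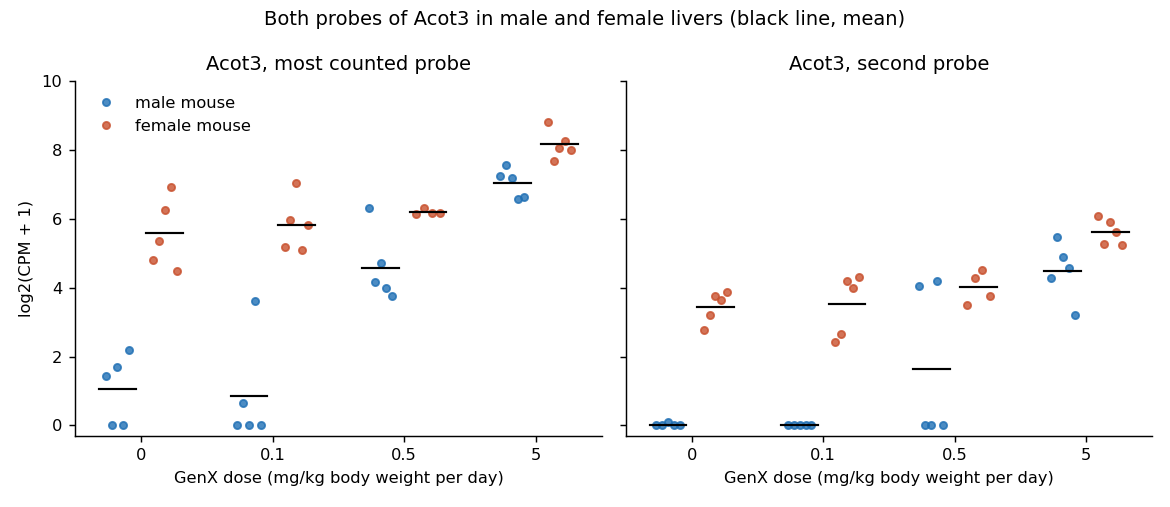
Both probes of Acot3 in each mouse, as log2(CPM + 1), against GenX dose, with males in blue, females in red and the mean as a black line. In controls and at 0.1 mg/kg the females lie above the males at both probes, and at 5 mg/kg the most counted probe spans 94.6 to 187 CPM in males and 202 to 452 CPM in females.

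The other peroxisomal members were counted too thinly for firm statements. Acot4 had 0 reads in each of the 10 control livers of both sexes. It had 25, 31, 39, 0 and 91 reads in males at 0.5 mg/kg and 102, 65, 66, 6 and 24 reads in males at 5 mg/kg. Thus 5 of 5 males at the top dose had reads, but the 6 reads of mouse 404 were below the 22.6 reads of a captured molecule in its library. Its adjusted p was 0.10005 at 5 mg/kg in males, just outside FDR <10%, and it was 0.0987 in DESeq2 and 0.0814 when the probes of each gene were summed. Because Acot4 passed the filter only through dosed libraries, its edgeR values against controls are not independent of that filter. As a share of the group's total molecules, the 10 captured in the 5 mg/kg males were 1.94-fold the 3 that a count of 0 allows over the 5 male controls. That ratio takes the 10 as exact, so it is not a lower limit on the rise. In females at 5 mg/kg 2 of 5 mice had reads (71 and 31, adjusted p = 0.233).

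Acot5 had reads only at 5 mg/kg, with 17, 0, 26, 0 and 17 in males (adjusted p = 0.157) and 13, 0, 44, 0 and 0 in females (adjusted p = 0.258). Acot6 had reads in 4 of 5 males at 5 mg/kg, from 24 to 53, and in 2 of 5 male controls, 49 and 41 (log2 0.48, SE 2.64, adjusted p = 1). Its second probe had reads in 3 of 5 males and 2 of 5 females at 5 mg/kg and in no control (adjusted p = 0.181 and 0.258). Acot8 had reads in 4 mice in all, a female control, a male and a female at 0.1 mg/kg and a female at 5 mg/kg, and passed no comparison. The median number of captured molecules per library was 330204 in male controls, 590657 in males at 5 mg/kg, 418658 in female controls and 320570 in females at 5 mg/kg, so in males the sparse probes were sampled more deeply at the top dose; the part of this in their detection was not tested.

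**Figure D4:**
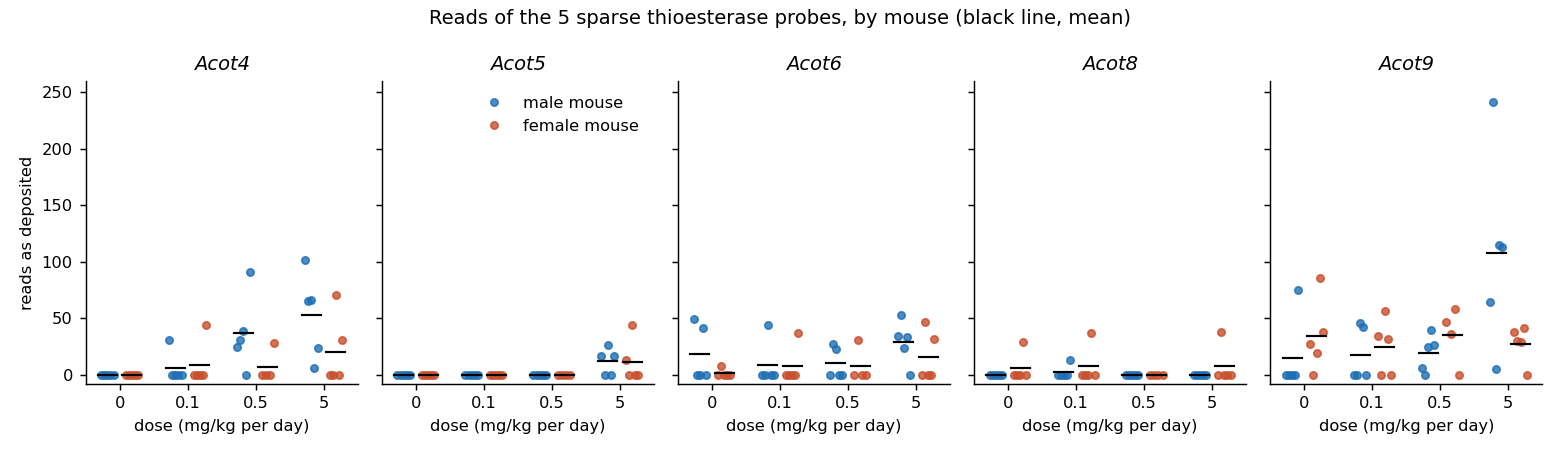
Reads as deposited for the 5 sparse members in each mouse against dose, with males in blue, females in red and the mean as a black line. Acot4 is at 0 in all 10 controls and reaches 102 reads at 5 mg/kg, Acot5 has reads only at 5 mg/kg, and Acot8 has reads in 4 mice.

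Counted over the whole family, the response was graded with dose. At 0.1, 0.5 and 5 mg/kg, FDR <10% was met in males by 0, by 3 (Acot1, Acot2, Acot3) and by 5 (Acot1, Acot2, Acot3, Acot12, Acot13) of the 10 members, beside 0.0336%, 2.38% and 8.28% of all 17877 probes. In females it was met by 0, by 1 (Acot1) and by 4 (Acot1, Acot2, Acot3, Acot13), beside 0%, 0.213% and 3.66%. All of these calls were upward. At 0.1 mg/kg edgeR gave an unadjusted p below 0.05 for 2 members in males (Acot1 and Acot4) and 1 in females (Acot4). Over all 17877 probes this held for 2435 in males and 1843 in females, so these counts are near the background. Acot4 had reads in a single mouse of each sex at this dose. DESeq2 called 0 members in either sex, beside 274 (males) and 166 (females) of the 20188 probes it tested. Between 0.5 and 5 mg/kg, 3 members were called in males (Acot1, Acot2, and Acot3 at 2.19, SE 0.683, adjusted p = 0.0928), beside 2.64% of all probes, and 2 in females (Acot1 and Acot2), beside 1.23%. The Acot3 step in males lost its call without any 1 of mice 302, 303, 304, 305, 401, 402, 403 and 405 (2.00 to 2.29, adjusted p = 0.106 to 0.243), and in DESeq2 the male steps of Acot2 (3.37, adjusted p = 0.167) and Acot3 (2.19, adjusted p = 0.341) were not called. With the library of mouse 355 included, the calls of Acot2 at 0.5 mg/kg in males (adjusted p = 0.223), Acot3 at 5 mg/kg in females (0.312), the male steps of Acot2 (0.203) and Acot3 (0.382), the Acot3 sex difference at 5 mg/kg (0.202) and the Acot12 difference between control sexes (0.208) were also lost.

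By compartment, the calls at 5 mg/kg fell on 2 of 2 cytosolic, 2 of 3 mitochondrial and 1 of 5 peroxisomal members in males, and on 1, 2 and 1 in females, beside 8.28% and 3.66% of all probes. In DESeq2, which gave no value for Acot8, the peroxisomal calls were 2 in males (Acot3 and Acot4) and 0 in females. The peroxisomal share also held 4 of the 5 sparse probes. Within the cluster, the called genes were Acot2, Acot1 and Acot3 in both sexes, and Acot4, which lies between Acot1 and Acot3, was the member just outside the threshold in males. Their fitted rises at 5 mg/kg did not follow their order along the chromosome, with 6.87, 4.79 and 6.48 in males and 5.20, 4.25 and 2.37 in females for Acot2, Acot1 and Acot3.

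**Figure D5:**
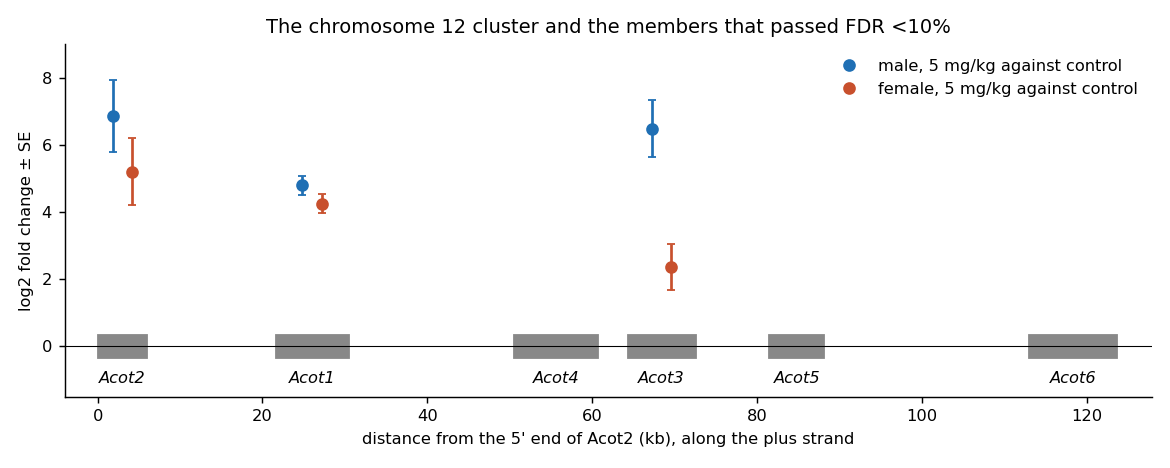
Map of the 6 clustered genes, drawn to scale as gray boxes at their distance in kb from the 5′ end of Acot2, with the log2 fold change and SE at 5 mg/kg above each gene that passed FDR <10% (blue, males, and red, females). Acot2, Acot1 and Acot3 carry points between 2.37 and 6.87, and Acot4, Acot5 and Acot6 carry none.

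The makeup of the family counts shifted as well. The CPM of the 10 members summed to 165 ± 24 in male controls and 1960 ± 463 at 5 mg/kg, and to 275 ± 62.0 in female controls and 1762 ± 318 at 5 mg/kg (SD, n = 5 each). Acot1 took 24.4% to 40.2% of that sum in male controls and 68.9% to 74.3% at 5 mg/kg, with no overlap, and 10.9% to 31.4% and 57.7% to 72.1% in females. These shares describe probe counts, since probes of different genes capture with different efficiency.

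Genes that act on the same pools of acyl-CoA and coenzyme A were read from 5 lists. Of 8 peroxisomal oxidation and import genes, 7 rose at 5 mg/kg in each sex, beside 8.28% (males) and 3.66% (females) of all probes called. Their median log2 fold change was 2.38 (males) and 1.92 (females), beside 0.10 and -0.01 over all probes tested. Ehhadh, the bifunctional enzyme of peroxisomal oxidation, went from 205 ± 50.8 to 10597 ± 1920 CPM in males (log2 5.69, SE 0.196, adjusted p = 5.66e-28) and from 253 ± 46.2 to 7868 ± 1459 CPM in females (4.96, SE 0.189, adjusted p = 6.21e-26). The log2 fold changes were 2.47 (males) and 2.60 (females) for the thiolase Acaa1a, and 2.44 and 1.87 for the peroxisome proliferation factor Pex11a. The fatty acyl transporter Abcd3 went from 54.5 ± 19.7 to 177 ± 36.6 CPM in males and from 35.2 ± 5.31 to 137 ± 50.3 CPM in females (adjusted p = 2.16e-05 and 3.2e-06). Hsd17b4 (0.81 and 0.92) and Acaa1b (2.33 and 3.44) rose in both sexes too. Scp2, which includes a peroxisomal thiolase, rose in females (0.39, adjusted p = 0.0177) and had -0.24 in males (adjusted p = 0.176, and -0.31 with an adjusted p of 0.00677 in DESeq2), a difference between the sexes that was itself called (0.63, adjusted p = 0.0181). Abcd2 passed in males (adjusted p = 0.0316), where its controls had 0 reads.

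Of 4 carnitine acyltransferases, which move acyl groups between carnitine and coenzyme A, 3 rose in males and 2 in females (median log2 1.83 and 1.23), beside 8.28% and 3.66% of all probes called. The peroxisomal Crot rose from 41.2 ± 15 to 229 ± 83.6 CPM in males (log2 2.47, SE 0.280, adjusted p = 3.04e-09) and from 81.1 ± 25.7 to 197 ± 55.5 CPM in females (1.28, SE 0.269, adjusted p = 0.00153). The mitochondrial Cpt2 rose by 1.18 (adjusted p = 0.000906) and 1.17 (adjusted p = 0.00211). Crat passed in males (2.85, adjusted p = 0.0145) and had 2.04 in females (adjusted p = 0.201). Apart from Scp2, no gene of the 5 lists was called in the sex difference at 5 mg/kg by edgeR. Cpt1a passed in neither sex, with -0.81 in males and -0.68 in females.

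Of 7 genes of coenzyme A synthesis, 6 were tested and 0 were called at 5 mg/kg in either sex by edgeR or DESeq2. An unadjusted edgeR p below 0.05 was met by 2 (Pank1 and Pank4) in each sex. Over all 17877 probes it was met by 3943 in males and 3201 in females. With 8.28% and 3.66% of all probes called, 0 of 6 is near the background. Pank4 was barely counted, at 0 CPM in the controls of both sexes. Pank1, a kinase of the first step, had a log2 difference of 0.37 (unadjusted p = 0.0392, adjusted p = 0.203) in males and 0.45 (unadjusted p = 0.0143, adjusted p = 0.241) in females. Of the 3 Nudix hydrolases, which degrade coenzyme A and its esters, the peroxisomal Nudt7 fell in males from 293 ± 48.0 to 143 ± 43.3 CPM (log2 -1.04, SE 0.280, adjusted p = 0.0120) and had 102 ± 74.8 and 84.9 ± 26.5 CPM in females (-0.26, adjusted p = 0.971). Of 11 further thioesterases and relatives, 7 were tested. Ppt1, the lysosomal palmitoyl-protein thioesterase, rose in males (0.89, SE 0.227, adjusted p = 0.00732) and had -0.03 in females (adjusted p = 1). Acot7, a cytosolic thioesterase best known from brain, rose in females (0.69, SE 0.209, adjusted p = 0.0588) and had 0.47 in males (adjusted p = 0.187).

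The genes whose counts moved most like those of the thioesterases over the 39 libraries were described by Pearson correlation of log2 CPM among the most counted probes. For Acot1 these were Ehhadh (r = 0.977), Acadm (0.972), Cyp4a31 (0.968), Hsd17b11 (0.959) and Aldh3a2 (0.948). For Acot2 they were Pex11a (0.875), Aldh3a2 (0.864), Ehhadh (0.860), Hsd17b11 (0.852) and Acaa1a (0.850). For Acot4 the values were lower, with Gsr (0.708), Anxa7 (0.659), Ftl1 (0.658), Slc35f2 (0.656) and Rogdi (0.633), over a probe with reads in only 14 libraries. Within the family, Acot1 correlated with Acot2 at 0.847, Acot13 at 0.610, Acot3 at 0.597 and Acot12 at 0.537. The points share their libraries and dose groups, so these values describe similarity of pattern only.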

How the data were processed

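TempO-Seq read counts per detector probe were measured in liver sections of 40 mice. Per the labels, bcl2fastq 2.17.1.14, Bowtie and mm10 were used, and the authors deposited raw counts per probe. The Bowtie settings are not given in the sources used here. Mouse 355 was left out because its total was more than 2 SD below the mean (limit 9680193 reads), after the study's own depth rule. The 39 kept libraries held 10341341 to 15562253 reads. Amplified reads are not independent, so the first peak of each library's counts was taken as the reads per captured molecule (20.8 to 49.8), giving 287018 to 655905 molecules. Intervals and limits in molecules cover counting error only. No label ties mice to litters or batches. The p-values of the main fit rest on a spread between mice that was estimated over all 8 groups together.

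edgeR 4.0.16 (R 4.3.3) was used with TMM scaling, filterByExpr (17877 probes tested), 1 fit over 8 groups, the quasi-likelihood test and Benjamini-Hochberg adjustment over all probes in each of 12 comparisons (FDR <10%). CPM were scaled with the TMM factors, and log2 CPM for correlations used a prior count of 2. Each SE was back-calculated as the absolute log2 fold change over the square root of the quasi-likelihood F. It is approximate, most of all for sparse probes. Scripts were tested on simulated data. Named were all members, the genes of 5 lists past FDR <10% at 5 mg/kg, and the genes nearest by correlation. Cpt1a, Pank1 and Pank4 were named after their values were seen. The members and lists were chosen with earlier results of these data known. Alternatives were DESeq2 1.42.0, its size factors in edgeR, no filter, all 40 libraries, a fit to the compared groups alone, the sum of a gene's probes, captured molecules, and leaving out each mouse. DESeq2 gave no value for Acot8, so its counts of called members leave that gene out.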

Additional observations from a re-analysis of the deposited data

Results flagged for a closer look

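Gaps in 5 of 49 group and gene sets with reads in at least 3 mice exceeded Dixon's 95% critical value, where chance gives about 1 in 20. They were Acot1 in male mouse 202 at 0.1 mg/kg, the lowest of its group at 29.1 CPM, Acot3 in male mouse 301 at 0.5 mg/kg, the highest at 78.0 CPM, Acot3 in female mouse 253 at 0.1 mg/kg, the highest at 131 CPM, Acot12 in female control 153, the highest at 137 CPM, and Acot9 in female mouse 455 at 5 mg/kg, the lowest at 0 CPM.

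The effect of GenX on Acot3 differed between the sexes by a test of the difference. At 5 mg/kg the log2 difference, female minus male, was -4.10 at the most counted probe and -7.62 at the second probe, and at 0.5 mg/kg it was -7.39 at the second probe. The values of the second probe rest on a single read in the 5 male controls, and their size depends on the prior count of the fit.

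The library of female mouse 355 (0.5 mg/kg), which was left out of the comparisons except as an alternative, had 92.9 CPM of Acot1, above the 23.8 to 80.3 CPM of the female controls and below the 121 to 247 CPM of the other females at 0.5 mg/kg, on a scale set over all 40 libraries. Its Acot9 probe had 9.35 CPM, above the highest female control at 6.97 CPM. It had 0 reads of Acot2, Acot3 and Acot13.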

How the results depend on the processing

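No single-gene call changed direction under any alternative: of 364 refits of 21 called values, 325 kept the call and 39 lost it. The rises of Acot1 at 0.5 and 5 mg/kg in both sexes, of Acot2 at 5 mg/kg in both sexes, of Acot3 at 0.5 and 5 mg/kg in males, of Acot12 at 5 mg/kg in males, and the Acot3 difference between control sexes, passed in all of their alternatives. With all 40 libraries, the members called fell from 4 to 2 for females at 5 mg/kg, from 3 to 1 for the male step from 0.5 to 5 mg/kg, from 2 to 1 between control sexes and from 1 to 0 for the sex difference at 5 mg/kg. DESeq2 gave 1 for the male step, 1 for the female step and 0 for the sex difference at 5 mg/kg. Counts in captured molecules gave 4 for the female step (main value 2) and 1 for the sex difference at 0.5 mg/kg (main value 0). That last count was 2 with no filter on low counts, 1 in a fit to the compared groups alone and 1 with the probes of a gene summed. The cause was not tested. Leaving out 1 mouse gave 1 to 2 for the female step, 0 to 1 for the sex difference at 0.5 mg/kg, 1 to 2 between control sexes, 2 to 3 for the male step and for males at 0.5 mg/kg, 4 to 6 for males at 5 mg/kg and 3 to 4 for females at 5 mg/kg. DESeq2 called more probes, with 166 in females and 274 in males at 0.1 mg/kg where edgeR called 0 and 6. DESeq2 size factors moved the share of upward calls from 73.2% to 62.7% in males at 0.5 mg/kg and from 44.1% to 57.6% for the sex difference at 5 mg/kg. No paired analysis was possible because the mice of different groups share no number. The sparse probes, at 1 or a few captured molecules per library, limit what can be said of Acot4, Acot5, Acot6, Acot8 and Acot9.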
